A study of Kluyveromyces lactis with 17 samples.

Results

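Subtelomeric genes of the yeast Kluyveromyces lactis were examined just inward of the outermost genes of each chromosome. On each of the chromosomes A to F, genes were sorted by the number in their identifier, and those at ranks 6 to 15 from either end were taken. Of the 6 genes that the rule leaves out, those within these ranks sat at ranks 12 to 14 of the left end of C and at rank 6 of the right end of B. This gave 116 genes (called members below) of the 5335 in the count table, spread over 12 chromosome ends, and the gene order of the reference annotation ASM251v1 gave the same 116. A symbol was listed for 46 members, and the other 70, of which 1 is not protein coding, are known here by identifier only. Apart from the 6 genes it leaves out by identifier, the rule uses the order of identifiers alone.

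The series concerns the role of Sir2 in gene expression when NAD+ is scarce, and it compared 2 strains by poly(A) RNA-seq with paired-end reads. The strain called wild type (WT) is LRY2992, MATa SIR2 hmlΔ hmrΔ, in the CBS2359 background per the series text, and the mutant is LRY2993, MATα sir2Δ hmlΔ hmrΔ, so both lack HML and HMR. The strains differ in mating type as well as in SIR2, and these differences cannot be told apart here. Cells grown overnight in minimal medium without niacin, to which nicotinic acid (an NAD+ precursor) had been added at 400 µg/L, were moved for 4 h to 400, 135, 45 or 15 µg/L, giving 8 groups of 2 biological replicates each per the series text.

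Sir2 is a protein deacetylase that consumes NAD+ when it removes acetyl groups from histones. In budding yeasts it keeps genes near chromosome ends and at the silent mating-type loci repressed, and it is placed there with partner proteins. K. lactis takes up nicotinic acid to make NAD+, which ties this type of silencing to the vitamin supply.

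The 17 libraries held 24663143 to 38246270 counted reads, and members took 3.92% to 4.87% of them. KLLA0_F14663g, taken as SIR2 from prior knowledge because the annotation gives it no symbol, ranged from 128 to 145 CPM (read counts scaled to library size with TMM factors) in the 8 WT replicates and from 0.687 to 2.64 CPM in the 8 sir2Δ replicates. WT at 400 µg/L has libraries 1, 1R and 2, and 1 and 1R were summed as 1 replicate. Library 1 stood apart: against the mean of 1R and 2, its median log2 difference was 0.28 over the 57 shorter members (up to 1212 bases of coding length) and −0.23 over the 57 longer ones. The main counts that rest on WT at 400 µg/L are therefore also given without library 1. A resubmission is noted in the labels for libraries 1 and 1R, and for library 8 of sir2Δ at 15 µg/L.

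Of the 116 members, 114 passed the filter on low counts and were tested. The other 2, KLLA0_B14597g and KLLA0_D00269g, had at most 1 read in any library, below the floor of 3 reads (0.0784 to 0.122 CPM). The tRNA gene KLLA0_A00308r passed the filter with 0 to 0.404 CPM and was called in no comparison. At the other extreme, KLLA0_A11858g reached 24413 to 38330 CPM, and at 400 µg/L in WT it had the highest level per kilobase of all tested genes. RPS12, a ribosomal protein gene, and ALD4, a mitochondrial aldehyde dehydrogenase gene by its S. cerevisiae name, came next by mean CPM. The median level of members in WT at 400 µg/L was 34.6 CPM per kilobase of coding length, against 20.8 at ranks 1 to 5 and 41.6 over all tested genes. In sir2Δ at 400 µg/L these medians were 42.9, 123 and 42.1 CPM per kilobase, so members moved far less than the outermost genes.

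Without Sir2, at 400 µg/L, the members shifted upward. In sir2Δ against WT, 71 of 114 members were called, 58 higher and 13 lower, at an adjusted p under 0.05 (edgeR quasi-likelihood test, Benjamini-Hochberg over 5224 genes). Over all tested genes 44.7% were called, 22.5% higher and 22.3% lower. The median log2 fold change was 0.38 over members and −0.01 over all genes, and 18 members were higher by at least 1 on the log2 scale against 1 lower. Of all 5224 tested genes, 236 were higher by at least 1, and slightly more were lower by that much. Ranks 6 to 10 had 32 of 58 higher and 5 lower, and ranks 11 to 15 had 26 of 56 higher and 8 lower. For comparison, ranks 1 to 5 had 49 of 58 higher (median 1.88), while ranks 16 to 30 had 45 of 179 higher and 40 lower (median 0.03). Without library 1, 64 members were higher and 16 lower. Fewer were called without library 1R: among members without a symbol, 41 were higher and 3 lower, in place of 44 and 4.

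**Figure D1:**
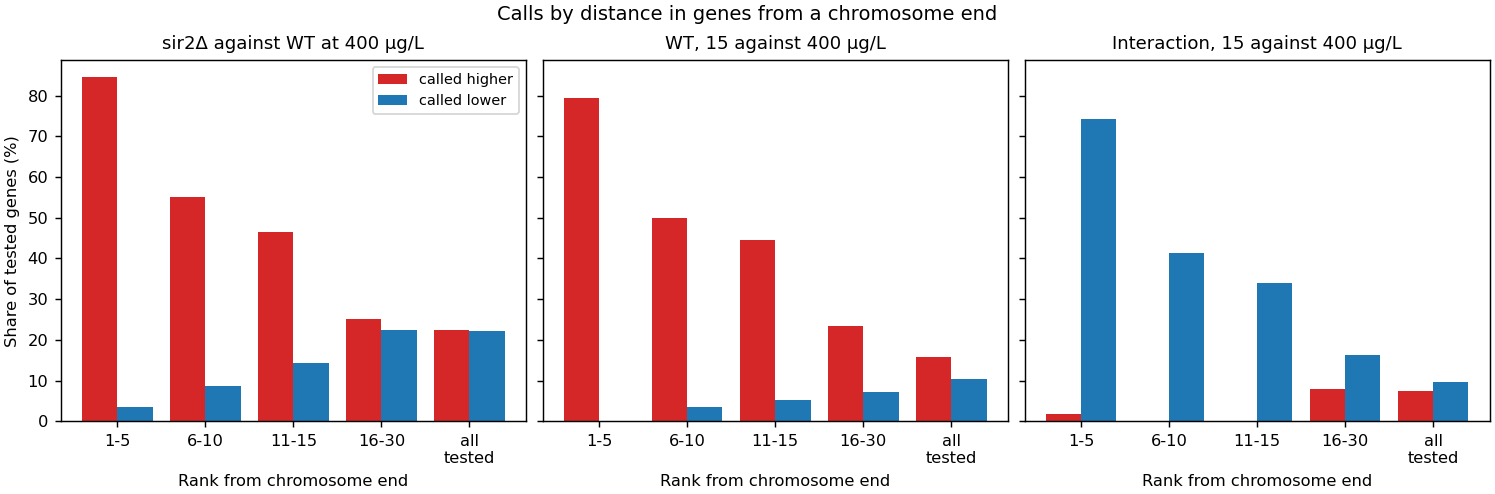
Share of tested genes (%, vertical axis) called higher (red) or lower (blue), by rank from a chromosome end, in 3 comparisons. The shares of higher calls in the left and middle panels, and of lower calls in the right panel, are largest at ranks 1 to 5, intermediate at ranks 6 to 10 and 11 to 15, and smaller at ranks 16 to 30.

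WT cells moved to 15 µg/L showed a rise at many of these genes. Against 400 µg/L, 54 members rose and 5 fell (edgeR quasi-likelihood test, adjusted p under 0.05), where 15.8% of all tested genes rose and 10.3% fell, 26.1% in all. The 5 that fell were KLLA0_A00242g, GUT2, PEX2, RAD17 and KLLA0_C19107g. The median log2 fold change was 0.27 over members and −0.01 over all genes, and 12 rose by at least 1, as did 201 of all 5224 tested genes. At 45 µg/L 26 members rose and 3 fell (7.20% and 3.46% of all genes, 10.7% in all). The 3 were GUT2, KLLA0_C19107g and MHO1, the last named after its value was seen. All 26 were among the 54, a comparison that shares its WT libraries at 400 µg/L. At 135 µg/L 9 rose and 0 fell (2.22% and 0.861%, 3.08% in all). Of the 54, 25 had group means that increased at every step from 400 down to 15 µg/L. The choice of the 54 fixes the order of the means at 400 and 15 µg/L. The same count over all genes is not given here, so the 25 are not read as a trait of members. Without library 1 the counts were 54 and 7 at 15 µg/L, 26 and 3 at 45 µg/L, and 11 and 1 at 135 µg/L. Fewer rose at 15 µg/L without library 1R: among members without a symbol, 31 in place of 38. At 45 µg/L, 19 members in all were called without replicate 1 of WT at 400 µg/L, 18 or 19 without WT library 5 or 6, and 16 without library 1R. At 135 µg/L, 14 were called without replicate 2 of WT at 400 µg/L, 4 or 5 without WT library 3 or 4, and 5 without library 1R.

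The same step in sir2Δ gave no such shift. From 400 to 15 µg/L, 11 members rose and 13 fell (11.6% and 6.09% of all genes, 17.6% in all), with a median of −0.04. Under upper-quartile scaling the split was 15 and 8. At 45 µg/L 10 rose and 14 fell (10.7% and 7.83%, 18.6% in all). At 135 µg/L 2 rose, KLLA0_B00264g and KLLA0_D00253g, and 0 fell (1.17% and 0.727%, 1.90% in all). Leaving out sir2Δ library 1 or 2 at 400 µg/L lowered the count called at 15 µg/L from 24 to 14. At 45 µg/L it lowered the count from 24 to 7 and 8, and leaving out sir2Δ library 5 lowered it to 10. Without library 1R the counts at 15 and 45 µg/L were 11 and 8. At 135 µg/L the count was 0 without any of the libraries 3 or 4 of either strain, sir2Δ library 1 or 2, or library 1R. It was 1 without sir2Δ library 7 or 8, 4 without a replicate of WT at 400 or 45 µg/L, 5 without library 1, and 7 without sir2Δ library 5 or 6.

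The difference itself was tested by the interaction, in which the WT change over this step is subtracted from the sir2Δ change. It was called lower for 43 members and higher for 0 (9.71% and 7.50% of all genes, 17.2% in all; edgeR quasi-likelihood test), with a median of −0.32 against 0.01 over all genes. Without library 1 it was lower for 51 and higher for 2. Without library 1R it was called lower less often, for 19 members without a symbol in place of 31. Of the 54 members that rose in WT, 34 had a lower interaction, which shares the WT libraries. Over all tested genes 429 had both calls (8.21%), out of the 823 that rose in WT. The 34 became 43 without library 1 and 25 without library 1R. At ranks 1 to 5 the interaction was lower for 43 of 58 with a median of −1.84, and at ranks 16 to 30 for 29 of 179 with a median of −0.05.

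**Figure D2:**
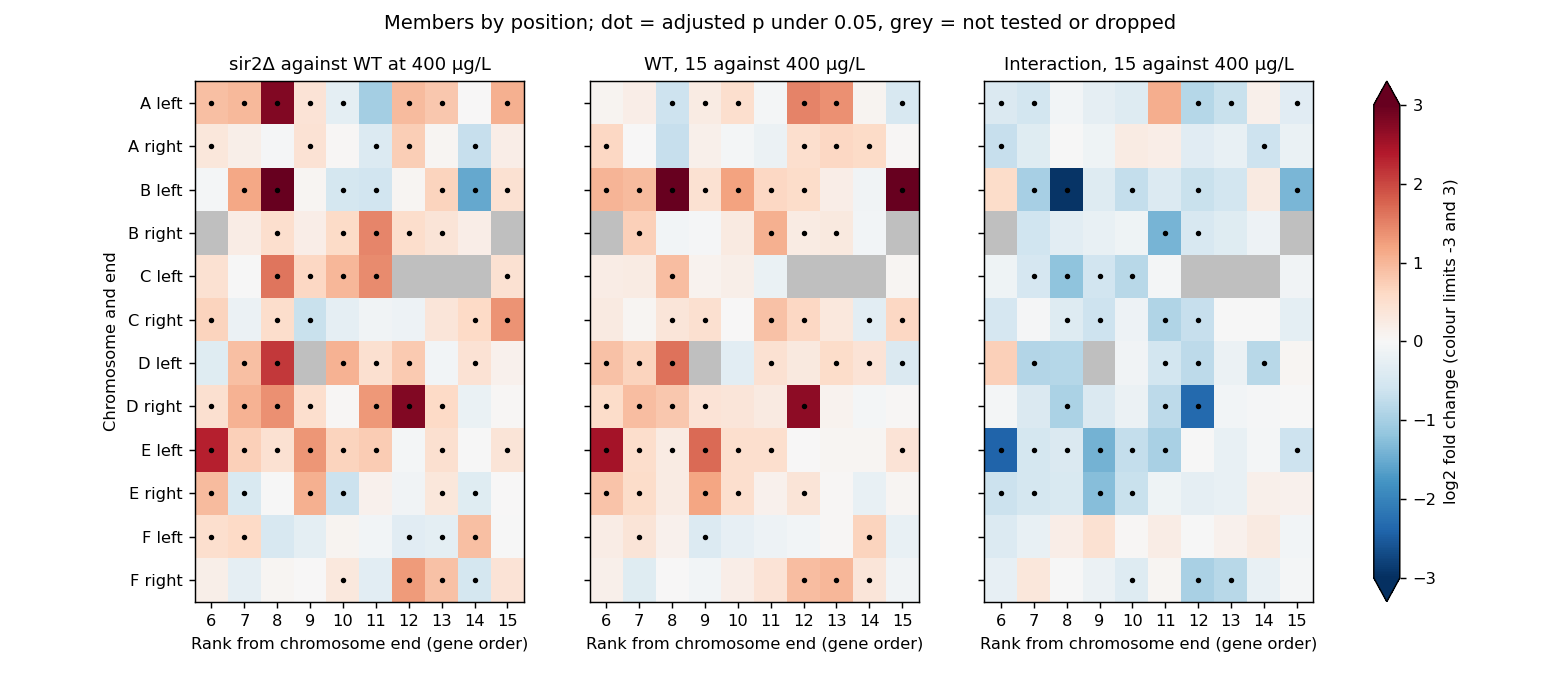
Each cell is 1 member, placed by chromosome end (rows) and rank from that end (columns), and coloured by log2 fold change in 3 comparisons; dots mark adjusted p under 0.05. The left end of E shows an unbroken run of calls from rank 6 to rank 11 in all 3 panels, and the left end of F shows 0 interaction calls.

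The gap between the strains over members was smallest at 15 µg/L, where the direction was mixed. The median log2 fold change of sir2Δ against WT was 0.38 at 400 µg/L, 0.18 at 135 and 0.21 at 45. At 135 µg/L sir2Δ was higher for 45 members and lower for 12 (16.5% and 15.3% of all genes, 31.8% in all), and at 45 µg/L for 48 and 15 (20.9% and 18.7%, 39.6% in all). At 15 µg/L 21 were higher and 22 lower (14.7% and 16%, 30.7% in all), with a median of 0.04. All 21 were also among the 58 higher at 400 µg/L, in comparisons with no library in common. They are 36.2% of the 58 and 18.4% of tested members. Over all tested genes 537 were higher at both levels (10.3%), out of the 1174 higher at 400 µg/L. Without WT library 7 at 15 µg/L, 28 members in place of 43 were called there. Of the 54 members that rose in WT at 15 µg/L, sir2Δ at that level was higher for 11, lower for 17 and not called for 26. These 2 comparisons share the WT libraries at 15 µg/L, so a high WT value there favours both a rise and a lower sir2Δ. The sir2Δ and WT libraries at 135 µg/L share none with the WT comparison of 15 and 400 µg/L. Of the 114 tested members, 27 were higher in both, 60% of the 45 and 50% of the 54. Over all tested genes 363 were higher in both (6.95%), out of 860 higher in sir2Δ at 135 µg/L and 823 that rose in WT.

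KLLA0_B00308g, at rank 8 of the left end of B, had the largest difference between the strains. In WT it measured 5.74 and 3.97 CPM at 400 µg/L, 9.58 and 7.64 at 135, 18.7 and 16.9 at 45, and 60.6 and 47.6 at 15. In sir2Δ it measured 79.5 and 80.1 CPM at 400 µg/L, 101 and 97.9 at 135, 140 and 125 at 45, and 128 and 96.1 at 15. Every sir2Δ value lies above every WT value, and WT climbed at each step. The log2 fold change was 4.00 ± 0.18 (SE) for sir2Δ against WT at 400 µg/L and 3.44 ± 0.18 for WT at 15 against 400 µg/L. At 15 µg/L the strains still differed by 1.05 ± 0.15. The interaction was −2.94 ± 0.23 (edgeR quasi-likelihood test, adjusted p = 1.3e-07).

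KLLA0_D19921g, at rank 12 of the right end of D, had the second-largest strain difference at 400 µg/L. In WT it measured 5.12 and 3.92 CPM at 400 µg/L, 4.45 and 4.23 at 135, 6.72 and 10.4 at 45, and 29.6 and 29.4 at 15. In sir2Δ its lowest value was 27.1 CPM at 135 µg/L and its highest 40.1 at 15. WT at 15 µg/L had come up to the sir2Δ range, with little movement before 45 µg/L. The log2 fold change was 2.78 ± 0.18 between the strains at 400 µg/L and 2.68 ± 0.18 in WT at 15 µg/L, with an interaction of −2.34 ± 0.23. The remaining difference of 0.44 ± 0.16 at 15 µg/L was called at an edgeR adjusted p of 0.046 and lost its call in 10 of 16 fits that left out 1 replicate (0.0524 to 0.146). These were the fits without a replicate of either strain at 135 or 15 µg/L, or of sir2Δ at 400.

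The left end of E held the longest run of genes with all 3 calls. Its members at ranks 6 to 11 are ARR2, ARR1, KLLA0_E00287g, KLLA0_E00309g, OPT1 and KLLA0_E00419g. All 6 were higher in sir2Δ at 400 µg/L, rose in WT at 15 µg/L and had a lower interaction. The WT libraries at 400 µg/L enter all 3 comparisons, so a low WT value there favours all 3 calls. In S. cerevisiae ARR2 encodes an arsenate reductase, ARR1 the transcription factor of the arsenic response, and OPT1 an oligopeptide transporter. ARR2 measured 1.49 and 1.84 CPM in WT at 400 µg/L, 2.11 and 2.62 at 135, 4.36 and 4.62 at 45, and 8.21 and 10.4 at 15, and in sir2Δ it stayed between 7.36 and 12.5. The WT values climbed at each step into the sir2Δ range. Its log2 fold change was 2.34 ± 0.23 between the strains at 400 µg/L and 2.51 ± 0.23 in WT at 15 µg/L. KLLA0_E00309g changed by 1.32 ± 0.11 and 1.71 ± 0.11, from 22.2 and 22.4 CPM in WT at 400 µg/L to 77.7 and 67.8 at 15. ARR1 and OPT1 changed less, by 0.71 ± 0.10 and 0.66 ± 0.11 between the strains at 400 µg/L. Further inward, EFM1 and KLLA0_E00485g at ranks 12 and 14 were called in none of these 3 comparisons. COF1 at rank 13 was called only as higher in sir2Δ at 400 µg/L, and MUP3 at rank 15 had all 3 calls. Leaving out replicate 1 of WT at 400 µg/L, or WT library 7 at 15 µg/L, left 4 of the 6 with all 3 calls.

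**Figure D3:**
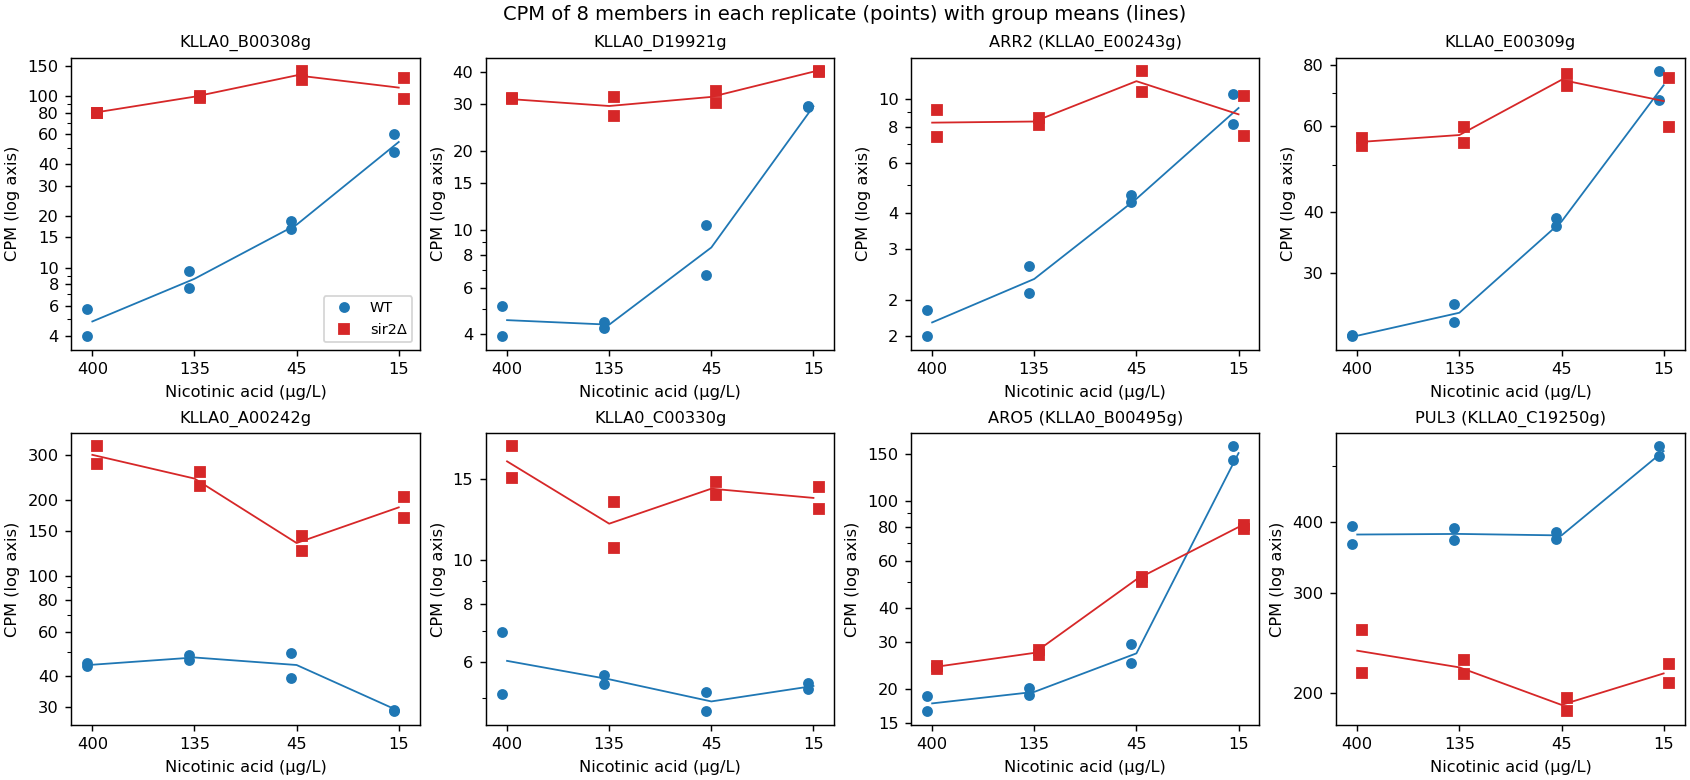
CPM (log axis, scaled per panel) of 8 members at 4 levels of nicotinic acid; points are replicates, lines join group means, blue is WT and red is sir2Δ. In the upper row WT climbs towards sir2Δ as nicotinic acid falls, whereas in the lower row KLLA0_A00242g and KLLA0_C00330g stay higher in sir2Δ at every level, ARO5 crosses over, and PUL3 stays lower in sir2Δ.

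Sir2Δ was higher at all 4 levels for 20 of the 114 tested members, against 7.60% of all tested genes. Of the 20, 10 rose and 3 fell in WT at 15 µg/L, a comparison that shares WT libraries with the strain comparisons. The count of 20 was 21 without library 1, 12 without WT library 7 or 8 at 15 µg/L 13 without sir2Δ library 7, and 11 without library 1R. KLLA0_A00242g, at rank 8 of the left end of A, measured 45.0 and 43.7 CPM in WT at 400 µg/L and 28.9 and 29.2 at 15. In sir2Δ it measured 326 and 278 CPM at 400 µg/L, 227 and 258 at 135, 125 and 144 at 45, and 169 and 204 at 15. The strains overlap at none of these levels, and at 15 µg/L the gene was below its 400 µg/L level in both, by −0.61 ± 0.12 in WT and −0.69 ± 0.12 in sir2Δ. The strain difference was 2.77 ± 0.13 at 400 µg/L and still 2.68 ± 0.13 at the lowest level. The interaction of −0.08 ± 0.17 was not called (edgeR adjusted p = 0.80). KLLA0_C00330g had strain differences of 1.42 ± 0.17 and 1.36 ± 0.18 and KLLA0_C19085g of 1.35 ± 0.09 and 1.06 ± 0.09.

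Sir2Δ was lower at all 4 levels for 8 of the 114 tested members, a share close to the 8.35% of all tested genes, and for 10 without library 1. The 8 were KLLA0_A11748g, BIO5, BIO4, KLLA0_B00473g, PUL3, KLLA0_E24861g, KLLA0_E24927g and NDD1. Of these, 6 rose in WT at 15 µg/L, where the WT libraries are shared with the strain comparisons. KLLA0_E24927g lost its call at 400 µg/L without sir2Δ library 2 (edgeR adjusted p = 0.051), and NDD1 at 15 µg/L without library 7 of WT (0.0612) or of sir2Δ (0.0876). KLLA0_B00473g measured 218 and 217 CPM in WT and 78.1 and 71.7 in sir2Δ at 400 µg/L, a log2 fold change of −1.54 ± 0.08. PUL3, named for the pulcherrimin genes, whose product is an iron-chelating pigment, measured 394 and 366 CPM in WT and 258 and 217 in sir2Δ at 400 µg/L. At 15 µg/L it measured 542 and 522 against 209 and 225 CPM. The strains did not overlap at either level, and the WT values were highest at 15 µg/L. Its strain difference was −0.68 ± 0.09 at 400 and −1.29 ± 0.09 at 15 µg/L, with an interaction of −0.62 ± 0.12. KLLA0_A11748g went from −0.70 ± 0.10 to −1.33 ± 0.10.

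The biotin genes lie side by side at the left end of B. BIO5 is named for a transporter of a biotin precursor, and BIO4 and BIO3 for biotin synthesis enzymes, by their S. cerevisiae names. BIO5 measured 64.0 and 58.5 CPM in WT at 400 µg/L, 78.1 and 72.1 at 135, 73.0 and 84.2 at 45, and 145 and 139 at 15. In sir2Δ it ranged from 38.9 to 63.4 CPM. In WT the step to 15 µg/L carried most of the rise. The log2 fold change was 1.21 ± 0.09 in WT and 0.51 ± 0.09 in sir2Δ, with an interaction of −0.70 ± 0.13. BIO4 and BIO3 rose in WT by 0.61 ± 0.11 and 0.55 ± 0.09, and both were lower in sir2Δ at 15 µg/L, by −0.98 ± 0.11 and −0.60 ± 0.09.

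Of the 7 transport genes with a symbol, 6 rose in WT from 400 to 15 µg/L, and the interaction was lower for 5 (15.8% and 9.71% of all tested genes). The 6 are BIO5, HIP1, AMF1, PUL3, OPT1 and MUP3, and GEX1 had a log2 fold change of 0.26 that was not called. In S. cerevisiae HIP1 encodes a histidine permease and MUP3 a methionine permease. Between the strains at 400 µg/L, 2 transport genes were higher and 2 lower. At 15 µg/L 5 were lower in sir2Δ (BIO5, AMF1, PUL3, MUP3 and GEX1) and 0 higher. AMF1 lost that call without WT library 7 (edgeR adjusted p = 0.16) or sir2Δ library 8 (0.15), and MUP3 without either library of either strain at that level (0.0690 to 0.244). HIP1 and BIO5 also rose in sir2Δ, HIP1 by 0.40 ± 0.10.

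The 5 named redox genes included 4 that were higher in sir2Δ at 400 µg/L, where 22.5% of all tested genes were. GUT2, a mitochondrial glycerol-3-phosphate dehydrogenase gene in S. cerevisiae, measured 420 and 412 CPM in WT and 877 and 861 in sir2Δ at 400 µg/L, and 327 and 311 against 577 and 554 at 45. At 15 µg/L the means were 300 ± 21.1 and 496 ± 2.64 CPM (SD, n = 2). It fell in both strains while sir2Δ stayed above WT. The changes were −0.47 ± 0.07 in WT and −0.81 ± 0.07 in sir2Δ. ALD4 went the other way, from 603 and 537 to 856 and 945 CPM in WT and from 1107 and 1016 to 1875 and 2157 in sir2Δ. Its rises of 0.66 ± 0.10 and 0.93 ± 0.10 gave an interaction of 0.27 ± 0.13 that was not called (edgeR adjusted p = 0.21). GTT1, a glutathione transferase gene in S. cerevisiae, was higher in sir2Δ at 400 µg/L by 0.41 ± 0.08 (adjusted p = 0.104 in the edgeR fit without library 1R). Its WT value of 0.24 ± 0.08 lost its call in 11 of 16 fits that left out 1 replicate (0.0511 to 0.251), namely without replicate 2 of WT at 400 µg/L, either replicate of sir2Δ at 400, or any replicate at 135 or 15. ZWF1 was called in neither comparison.

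Of 5 named genes for chromosome structure and the cell cycle, 3 were lower and 0 higher in sir2Δ at 400 µg/L (22.3% and 22.5% of all tested genes). The 3 were the cohesin genes SMC3 and IRR1 (by their S. cerevisiae names) and NUD1. Without library 1, 4 of the 5 were lower, and without library 1R, 1. The log2 fold changes were −0.30 ± 0.09, −0.53 ± 0.10 and −0.28 ± 0.08. SMC3 lost its call without replicate 2 of WT at 400 µg/L (edgeR adjusted p = 0.063) or without either sir2Δ library there (0.0903 and 0.0525), and NUD1 without replicate 2 of WT (0.0529). Without library 1R the calls of SMC3 (0.296), IRR1 (0.0762) and NUD1 (0.0843) were lost. SMC3 and IRR1 rose in WT at 15 µg/L by 0.51 ± 0.09 and 0.36 ± 0.10, and the RAD17 value of −0.42 ± 0.13 was called as a fall. IRR1 lost that call without library 1 (edgeR adjusted p = 0.0506), replicate 1 (0.183) or WT library 7 (0.184). RAD17 lost it without library 1 (0.0666), replicate 2 (0.0936) or WT library 7 (0.261).

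The remaining named genes gave smaller counts. Of 16 named genes for organelles, trafficking and signalling, 4 were higher and 1 lower in sir2Δ at 400 µg/L, and 1 rose and 1 fell in WT at 15 µg/L. Among all tested genes 22.5% were higher and 22.3% lower, and 15.8% rose and 10.3% fell, so these 16 show no excess. Without library 1 the counts for the 16 were 8 and 1, and 2 and 3, and without library 1R 2 and 1, and 1 and 1. ATG45, an autophagy gene, was higher in sir2Δ by 0.87 ± 0.07 and rose in WT by 0.99 ± 0.07, with an interaction of −0.83 ± 0.10. ATG2, also an autophagy gene, was higher by 0.60 ± 0.09, and ARL1 and COF1 by 0.35 ± 0.09 and 0.47 ± 0.12. UBS1 was lower by −0.36 ± 0.14. COF1 lost its call without replicate 2 of WT at 400 µg/L (edgeR adjusted p = 0.0685) or library 1R (0.387), and ARL1 without library 1R (0.103). UBS1 lost its call without library 1 (0.0854) and in 7 of 16 fits that left out 1 replicate (0.0501 to 0.319). These were without replicate 1 of either strain at 400 µg/L, any replicate at 135, or WT library 7. PEX2, a peroxisome gene, was the one that fell in WT, by −0.42 ± 0.11, and lost its call without replicate 1 (0.141) or WT library 7 (0.139).

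In vitamin and amino acid metabolism, THI4 (thiamine synthesis) and CHA1 (serine breakdown), by their S. cerevisiae names, were higher in sir2Δ at 400 µg/L by 0.91 ± 0.10 and 0.45 ± 0.12. CHA1 lost its call without replicate 2 of WT (edgeR adjusted p = 0.0972), sir2Δ library 1 at that level (0.105) or library 1R (0.0876). Among the transcription factors NDD1, a cell-cycle activator in S. cerevisiae, was lower by −0.34 ± 0.09, and in translation SUI2, an initiation factor gene, by −0.40 ± 0.08. NDD1 lost its call without library 1R (0.067). The largest group had no symbol: 44 of 68 tested were higher and 4 lower in sir2Δ at 400 µg/L, 38 rose and 2 fell in WT at 15 µg/L, and 31 had a lower interaction (35 without library 1, 19 without library 1R). The shares over all tested genes were 22.5% and 22.3%, 15.8% and 10.3%, and 9.71%.

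Among members without a symbol that the rule for naming picked out, KLLA0_B14729g measured 16.1 and 16.6 CPM in WT at 400 µg/L and 37.2 and 31.7 at 15, against 45.6 and 44.1 and then 39.4 and 32.0 in sir2Δ. WT reached the sir2Δ range at 15 µg/L. Its interaction was −1.41 ± 0.18. KLLA0_C00242g, KLLA0_D19945g and KLLA0_D19929g were higher in sir2Δ at 400 µg/L by 1.60 ± 0.24, 1.38 ± 0.13 and 1.30 ± 0.12. KLLA0_D00264g was low throughout, at 0.331 and 0.317 CPM in WT and 1.27 and 1.57 in sir2Δ at 400 µg/L. Its difference of 2.11 ± 0.37 became 1.73 without library 1, and its rise in WT of 1.64 ± 0.39 lost its call without WT library 8 (edgeR adjusted p = 0.054). KLLA0_C19107g fell in WT by −0.33 ± 0.09, a call lost without replicate 2 of WT at 400 µg/L (0.0524) or WT library 7 (0.194).

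Some members responded to low nicotinic acid in both strains, which share no libraries in this comparison. All 11 that rose in sir2Δ at 15 µg/L also rose in WT, 20.4% of the 54 and 9.65% of tested members. Over all tested genes 195 rose in both (3.73%), out of 823 that rose in WT and 604 in sir2Δ. PEX2, GUT2, KLLA0_A00242g and KLLA0_C19107g fell in both, and KLLA0_D00396g and KLLA0_E00419g rose in WT and fell in sir2Δ. Across the 114 members the changes in the strains had a Pearson r of 0.54 and a Spearman rho of 0.47, and over all genes the r was 0.19. In place of 11, 7 rose in both without sir2Δ library 1 at 400 µg/L, and 5 without library 1R.

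ARO5 had the second-largest rise in WT and the largest in sir2Δ. It measured 16.5 and 18.9 CPM in WT at 400 µg/L, 20.1 and 18.9 at 135, 29.4 and 24.9 at 45, and 160 and 142 at 15. In sir2Δ it measured 23.8 and 24.4, 26.7 and 27.8, 52.4 and 49.8, and 78.7 and 81.2 CPM at the same levels. Sir2Δ was above WT down to 45 µg/L and below it at 15. The log2 fold change was 3.10 ± 0.10 in WT and 1.73 ± 0.10 in sir2Δ, with an interaction of −1.36 ± 0.14. The strain difference turned from 0.45 ± 0.10 to −0.91 ± 0.10. KLLA0_A11957g, KLLA0_D00396g and MUP3 also had calls of opposite sign at 400 and 15 µg/L, and MUP3 at 15 µg/L (edgeR adjusted p = 0.045) lost its call in 10 of 16 fits that left out 1 replicate (0.0533 to 0.244). These left out a replicate of either strain at 135 or 15 µg/L, or of sir2Δ at 400.

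KLLA0_A00352g and KLLA0_A00374g, neighbours at ranks 12 and 13 of the left end of A, rose in WT by 1.49 ± 0.10 and 1.38 ± 0.10 and in sir2Δ by 0.62 ± 0.09 and 0.71 ± 0.10. KLLA0_B00264g and KLLA0_D00253g, at rank 6 of the left ends of B and D, rose in sir2Δ by 1.59 ± 0.26 and 1.60 ± 0.28 and in WT by 1.03 ± 0.25 and 0.88 ± 0.27. These last 2 have the same coding length of 1731 bases and close counts, so they may share reads and are uncertain as separate genes. KLLA0_B00264g lost its call in WT without replicate 1 at 400 µg/L (edgeR adjusted p = 0.0623) or WT library 7 (0.0845). Without library 1R the rises of the pair in sir2Δ had edgeR adjusted p-values of 0.0513 and 0.0777. Of the 13 members that fell in sir2Δ, 11 were higher in sir2Δ than in WT at 400 µg/L. That comparison shares the sir2Δ libraries at 400 µg/L, where a high value favours both calls. The same overlap over all genes is not given here. The 11 include KLLA0_C00286g, which fell by −0.65 ± 0.09, KLLA0_C00264g by −0.48 ± 0.10, and KLLA0_D19929g by −0.51 ± 0.12. KLLA0_D19929g lost that call without sir2Δ library 8 at 15 µg/L (0.0987).

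**Figure D4:**
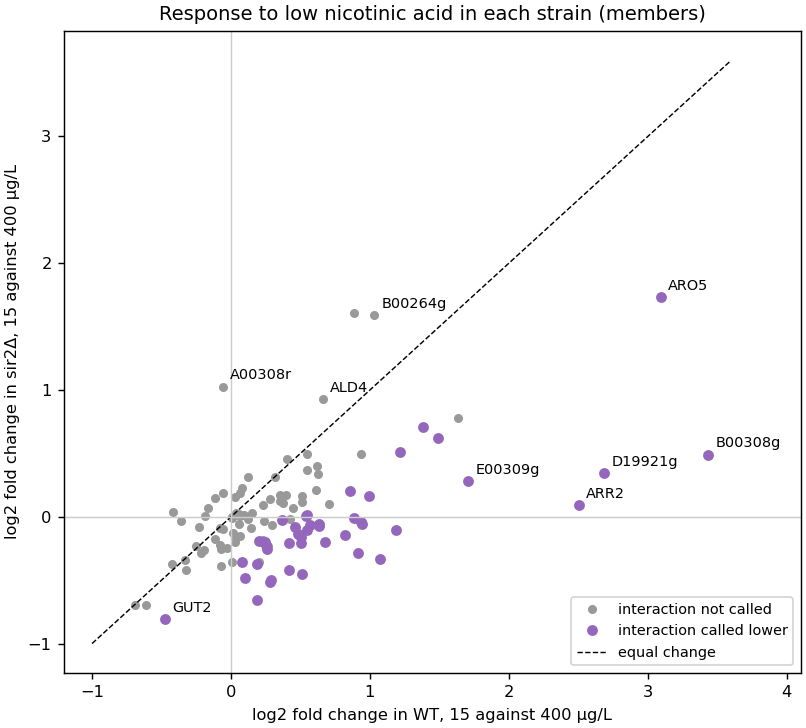
Log2 fold change from 400 to 15 µg/L in WT (horizontal axis) and in sir2Δ (vertical axis) for the 114 tested members; purple points are the 43 with a lower interaction and the dashed line marks equal change. KLLA0_B00308g, KLLA0_D19921g and ARR2 lie far to the right and between 0 and 0.5 on the vertical axis, and ARO5 is high on both axes but below the line.

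At the right end of E, 4 neighbouring members followed another course, and they were singled out after their values were seen. KLLA0_E24927g measured 128 and 126 CPM in WT at 400 µg/L, 320 and 314 at 135, 141 and 142 at 45, and 194 and 178 at 15, and KLLA0_E24861g measured 51.6 and 48.1, 99.2 and 97.1, 49.8 and 53.7, and 70.3 and 71.3 CPM. Both were highest at 135 µg/L, in both replicates, and in sir2Δ both stayed below every WT value, at 69.4 to 98.7 and 20.8 to 31.9 CPM. From 400 to 135 µg/L they rose by 1.32 ± 0.11 and 0.98 ± 0.08 in WT. The interaction over that step was −1.38 ± 0.15 (edgeR adjusted p = 1.0e-04) and −1.21 ± 0.11 (adjusted p = 4.7e-05). These calls were kept in all alternative fits run.

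KLLA0_E24905g was also highest at 135 µg/L in WT, at 57.9 and 61.5 CPM, and KLLA0_E24883g was higher at 135 µg/L (62.6 and 59.7) than at 45 (49.1 and 43.7) but highest at 15 (75.8 and 80.1). WT at 135 against 45 µg/L was higher for all 4, by 1.17 ± 0.11, 0.92 ± 0.08, 0.60 ± 0.12 and 0.40 ± 0.10 for KLLA0_E24927g, KLLA0_E24861g, KLLA0_E24905g and KLLA0_E24883g. Over all members 7 were higher and 7 lower in that comparison (1.95% and 4.52% of all genes, 6.47% in all). KLLA0_E24905g lost that call without WT library 4 (edgeR adjusted p = 0.0952) or 5 (0.0508), and KLLA0_E24883g without library 3 (0.173), 4 (0.0948) or 6 (0.20). Without library 1R the values were 0.102 and 0.0894. In the interaction over 135 and 400 µg/L KLLA0_B00473g was higher and 6 members lower (1.05% and 1.67%, 2.72% in all). The value of −0.75 ± 0.18 for KLLA0_E24905g lost its call in 7 of 16 fits that left out 1 replicate, those without replicate 2 of WT at 400 µg/L or without any replicate of WT at 135 or of sir2Δ at 400 or 135 µg/L. The other 5 members that rose in WT at 135 µg/L were ALD4, KLLA0_A00374g, KLLA0_B00308g, KLLA0_E24949g and AMF1, also named after their values were seen. The calls of KLLA0_E24905g and KLLA0_B00308g were lost without replicate 2 of WT at 400 µg/L or WT library 3 or 4, and those of AMF1 and KLLA0_E24949g without replicate 1 of WT at 400 µg/L, or either library at 135 µg/L of either strain. AMF1 also lost its call without sir2Δ library 1 or 2, and KLLA0_A00374g without WT library 3 (edgeR adjusted p = 0.0752). Without library 1, KLLA0_B00308g lost its call (0.321).

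**Figure D5:**
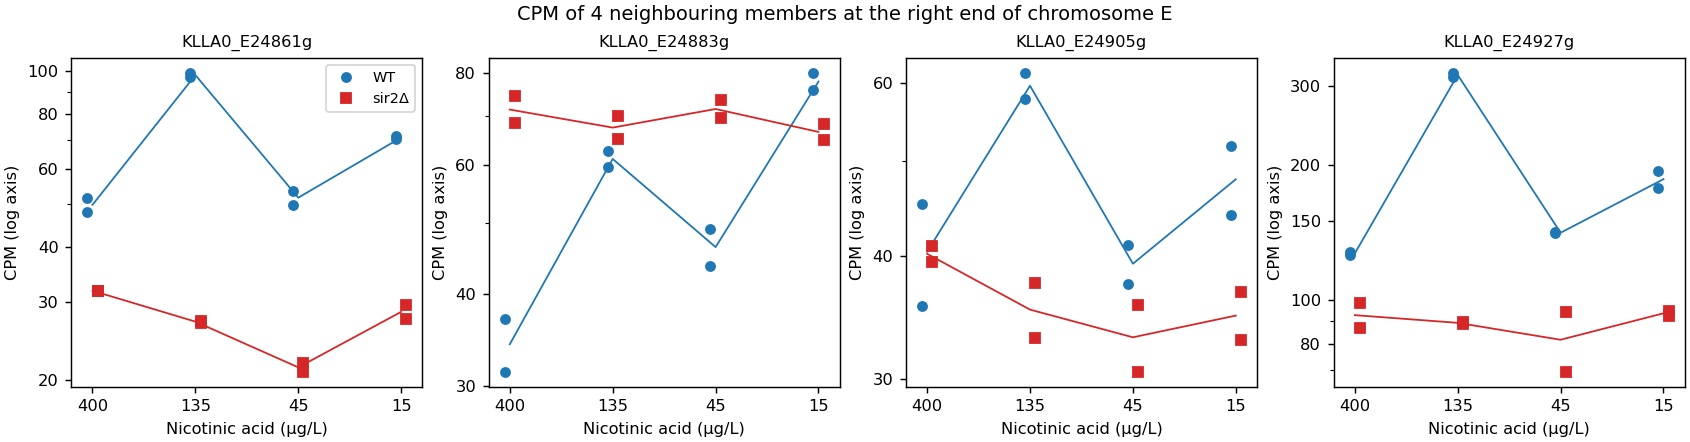
CPM (log axis, scaled per panel) of 4 neighbouring members at the right end of E, with replicates as points and group means as lines, WT in blue and sir2Δ in red. KLLA0_E24861g, KLLA0_E24905g and KLLA0_E24927g peak at 135 µg/L in WT and have no such peak in sir2Δ.

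The ends differed among themselves. In WT at 15 µg/L the left end of B had 8 of 10 members risen, with an unbroken run from rank 6 to rank 12, and the left end of E had 7 of 10. At the left end of C 1 of 7 rose and at the left end of F 2 of 10. In sir2Δ at 400 µg/L the left end of E had 8 of 10 members higher and the left end of A and the right end of D had 7 of 10 each, whereas the right end of E had 3 higher and 3 lower. The interaction was lower for 7 of 10 members at the left end of E, for 4 of 7 at the left end of C, and for 0 at the left end of F. Differences between ends were not tested. In all, 20 of the 114 tested members were called in none of the 11 comparisons.

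Of 31 listed genes for silencing factors, other sirtuins and NAD+ supply, 25 besides SIR2 were tested. In sir2Δ at 400 µg/L 6 were higher and 5 lower, shares close to the 22.5% and 22.3% of all tested genes. In WT at 15 µg/L 7 rose and HDA1 fell, where 15.8% and 10.3% of all genes did. NPT1, which encodes the enzyme that makes a nucleotide from nicotinic acid in S. cerevisiae, rose in WT, as did TNA1, a nicotinic acid transporter gene in S. cerevisiae, by 2.98 ± 0.10. Both were also higher in sir2Δ at 400 µg/L, by 2.27 ± 0.08 and 2.15 ± 0.09. SUM1, a repressor gene in S. cerevisiae, rose by 0.73 ± 0.11 and RIF1, a telomere protein gene, by 0.46 ± 0.07. Between the strains at 400 µg/L SUM1 was higher in sir2Δ by 0.58 ± 0.11 and RIF1 was lower, at −0.67 ± 0.08. SIR2 itself had a log2 fold change of 0.11 ± 0.13 in WT at 15 µg/L, which was not called.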

How the data were processed

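RNA-seq read counts were analysed as deposited, 1 whole-number count per gene and library, for 5335 genes in 17 libraries. Per the submitters' processing notes, DESeq2, featureCounts, Bowtie2, cutadapt, SAMtools, FastQC and MultiQC were used. The sources used here do not give versions, settings, genome build, annotation or use of strand, and counts of overlapping or near-identical genes may miss or mix reads. A normalized table that came with the series was left out. Names, coding lengths and gene order came from a RefSeq table of assembly ASM251v1, in which all 116 members matched, and no coordinates are given.

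In R 4.3.3, edgeR 4.0.16 (filterByExpr, minimum count 10, TMM factors, robust quasi-likelihood fit, prior count 0.125) was fitted over 16 columns, after summing the WT libraries 1 and 1R. The fit had 8 group means, 8 residual degrees of freedom and a common biological coefficient of variation of 0.0857. Benjamini-Hochberg adjustment ran over 5224 genes, and fold changes are log2 ± SE. The labels' protocols do not tie replicates across strains, and p-values measure the spread between these samples. Floors cover counting error only.

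Members and lists were chosen with earlier results of these data known. Named genes are the members with the largest called changes in the main comparisons, those with the highest and lowest levels, and members with a symbol called at 400 µg/L between strains or in WT at 15 µg/L. Role classes were assigned from symbols. Alternatives were other scaling factors, no filter, DESeq2 1.42.0, other uses of libraries 1 and 1R, each replicate left out, a replicate block, and other definitions of the members. The fit was checked on simulated data.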

Additional observations from a re-analysis of the deposited data

Results flagged for a closer look

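The change from 400 to 15 µg/L of nicotinic acid differed between the strains by the interaction test (edgeR quasi-likelihood, adjusted p under 0.05) for 43 members with a lower value in sir2Δ and 0 with a higher one. The 5 largest differences on the log2 scale were −2.94 for KLLA0_B00308g, −2.41 for ARR2 (KLLA0_E00243g), −2.34 for KLLA0_D19921g, −1.43 for KLLA0_E00309g and −1.41 for KLLA0_B14729g.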

How the results depend on the processing

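The alternative fits followed 127 pairs of a named gene and a comparison, and not every gene value given above. The direction of these 127 was the same in all alternative fits run. Of 2995 such values 2838 kept their side of the threshold, 157 lost their call and 0 changed sign. With 1 replicate left out at a time, the number of members called ranged from 66 to 72 for sir2Δ against WT at 400 µg/L, 44 to 58 at 135, 54 to 64 at 45 and 28 to 48 at 15. For WT it ranged from 43 to 60 at 15 against 400 µg/L, 18 to 29 at 45 and 4 to 14 at 135. For sir2Δ it ranged from 14 to 26 at 15, 7 to 27 at 45 and 0 to 7 at 135, and for the interaction from 34 to 48. Where that leaves a group with 1 replicate, that replicate is assumed to vary like the others. Without library 1R, the counts were 11 for sir2Δ at 15 µg/L (24 in the fit reported), 8 at 45 (24) and 0 at 135 (2), and 16 for WT at 45 (29) and 5 at 135 (9). With libraries 1 and 1R as separate columns they were 10, 7, 0, 17 and 5, and 27 for sir2Δ against WT at 15 µg/L (43). DESeq2 called 11 members for sir2Δ at 135 µg/L and 16 for WT at 135. Without library 1R, 25 members both rose in WT at 15 µg/L and had a lower interaction (34 in the fit reported). For sir2Δ at 135 µg/L the count was 5 without library 1, and 0 without KLLA0_B00264g and KLLA0_D00253g, an alternative chosen after seeing the data. With upper-quartile scaling the median over all genes was −0.11 for sir2Δ against WT at 400 µg/L and 0.10 for the interaction, where members were 56 higher and 18 lower, and 1 higher and 37 lower, with medians of 0.27 and −0.23. They gave 6 higher and 1 lower for WT at 135 µg/L. The library number as a replicate block gave 73, 62, 69 and 50 members for sir2Δ against WT at 400, 135, 45 and 15 µg/L and 51 for the interaction. Deviations of same-numbered libraries correlated at −0.08, −0.03, 0.48 and 0.24 at 400, 135, 45 and 15 µg/L. With 2 replicates per group, these values cannot settle whether the numbers pair the samples. Comparisons between levels share no numbers to block on. At the library depths here, KLLA0_B14597g and KLLA0_D00269g lie below the floor of 3 reads.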
